A study of Homo sapiens with 6 samples.

Results

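The 43 miRNAs described here are the known human miRNAs whose catalogue number has 3 digits or fewer and that remained after a named set of other hairpins (among them miR-31, miR-148a, miR-205, miR-221 and the miR-548 family) were set aside. They were chosen by name and number from the 161 known miRNAs in the authors' tables, with 24 in the table of higher miRNAs and 19 in the table of lower ones. The series compared exosomes from the medium of HaCaT cells, an established line of human skin keratinocytes, with and without an oxidant. Exosomes of 3 cultures given 0.4 mM hydrogen peroxide (H2O2) were compared with exosomes of 3 untreated cultures, all isolated by ultracentrifugation, and small RNA of each was sequenced. The labels call the replicates biological. Exposure is labelled 24, 25 and 26 h in H2O2 replicates 1, 2 and 3, but 24 h throughout in the design text, so time and replicate number cannot be told apart. HaCaT is a single immortalized line, so the 6 libraries do not sample different donors. The member with the highest number was miR-877-3p, and the listed miRNA with the lowest number above the limit of 3 digits was miR-1226-3p. Both were listed as higher. In counts per 1000000 reads of the library total (CPM), miR-877-3p had 0.948 to 3.33 in untreated and 2.90 to 17.96 in H2O2 libraries, and miR-1226-3p 0.632 to 6.29 and 4.11 to 11.8.

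A miRNA is cut from a hairpin precursor, whose arms are called 5p and 3p. One arm is loaded into an Argonaute protein and guides it to messenger RNAs by pairing of its seed, the bases near the 5′ end, and miRNAs with the same seed are expected to bind overlapping sets of messages. Exosomes are small vesicles that carry a part of a cell's miRNAs into the medium, and their content can differ from that of the cell.

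RefSeq mature sequences (GRCh38.p14) were matched by name and used for 38 of the 43 miRNAs. No sequence was used for the other 5, miR-151a-5p, miR-151b, miR-378d, miR-597-3p and miR-766-3p. Not every reference entry was used, so this does not mean that RefSeq lacks them. The 38 held 36 different seeds, and 2 seeds were shared by a pair of members each. Any seed shared by the other 5 was not counted. The sequences that follow are those of the pairs with a shared seed and of the hairpin with both arms listed. Those of miR-374b-5p and miR-374c-5p, whose seeds differ, and of some of the miRNAs with the steadiest or most abundant changes are also given. All are written 5′ to 3′ with the seed (bases 2 to 8) in capitals.
miR-29b-3p: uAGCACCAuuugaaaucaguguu
miR-29c-3p: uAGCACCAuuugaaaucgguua
miR-193a-3p: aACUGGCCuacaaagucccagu
miR-193b-3p: aACUGGCCcucaaagucccgcu
miR-374b-5p: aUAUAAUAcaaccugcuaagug
miR-374c-5p: aUAAUACAaccugcuaagugcu
miR-324-5p: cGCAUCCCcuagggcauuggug
miR-629-5p: uGGGUUUAcguugggagaacu
miR-30c-5p: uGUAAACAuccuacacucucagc
miR-99a-5p: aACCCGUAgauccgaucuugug
miR-125a-5p: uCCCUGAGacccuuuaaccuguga
miR-125a-3p: aCAGGUGAgguucuugggagcc

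As shares of library reads, miR-29b-3p, miR-324-5p, miR-193b-3p and miR-374b-5p were higher in exosomes from the H2O2 cultures than in untreated ones. By the same measure miR-30c-5p, miR-99a-5p, miR-125a-5p and miR-629-5p were lower. Of these, only miR-29b-3p, miR-324-5p and miR-629-5p passed the test given below whichever library was left out. Enough counts for the test (at least 5 in at least 3 libraries) were present for 37 of the 43 members, and 6 fell below this filter. Of the 37, 12 rose and 16 fell (Benjamini-Hochberg adjusted p below 0.05 in edgeR's quasi-likelihood test, the call used throughout), and 9 did not pass. These are 32.4% and 43.2% of the members tested. Among all 127 known miRNAs tested, 30.7% rose and 48.0% fell, and among all 186 rows tested, known and predicted, 37.6% rose and 42.5% fell. In all, 78.7% of known rows and 80.1% of all rows passed in one direction or the other, so the members' shares are near the background. The authors' tables hold rows already selected for a difference between these same libraries, which makes the adjusted p-values too small by an unknown amount and fixes most directions in advance. Adjusted as if 2000 miRNAs had been tested, 0 of the 37 passed with edgeR, although 30 had an unadjusted p below 0.05. Of the 127 known rows tested, 2 rose and 0 fell with that adjustment, and 109 had an unadjusted p below 0.05.

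The 20 tested members listed as higher had log2 fold changes of 0.94 to 1.92, with a median of 1.26, against a median of 1.44 for all 61 tested known rows listed as higher. Of these 20, 12 passed (60%, against 63.9% of those 61 known rows). The 17 tested members listed as lower ran from -2.62 to -1.23, with a median of -1.46, against -1.65 for all 66 tested known rows listed as lower. Of these 17, 16 passed (94.1%, against 92.4% of those 66 known rows). The untreated and H2O2 groups did not overlap in 34 of the 43 members (79.1%, against 83.9% of the 161 known rows), namely in 17 of those listed as higher and 17 of those listed as lower. In the known tables the groups did not overlap in 75.9% of rows listed as higher and 91.5% of rows listed as lower.

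**Figure D1:**
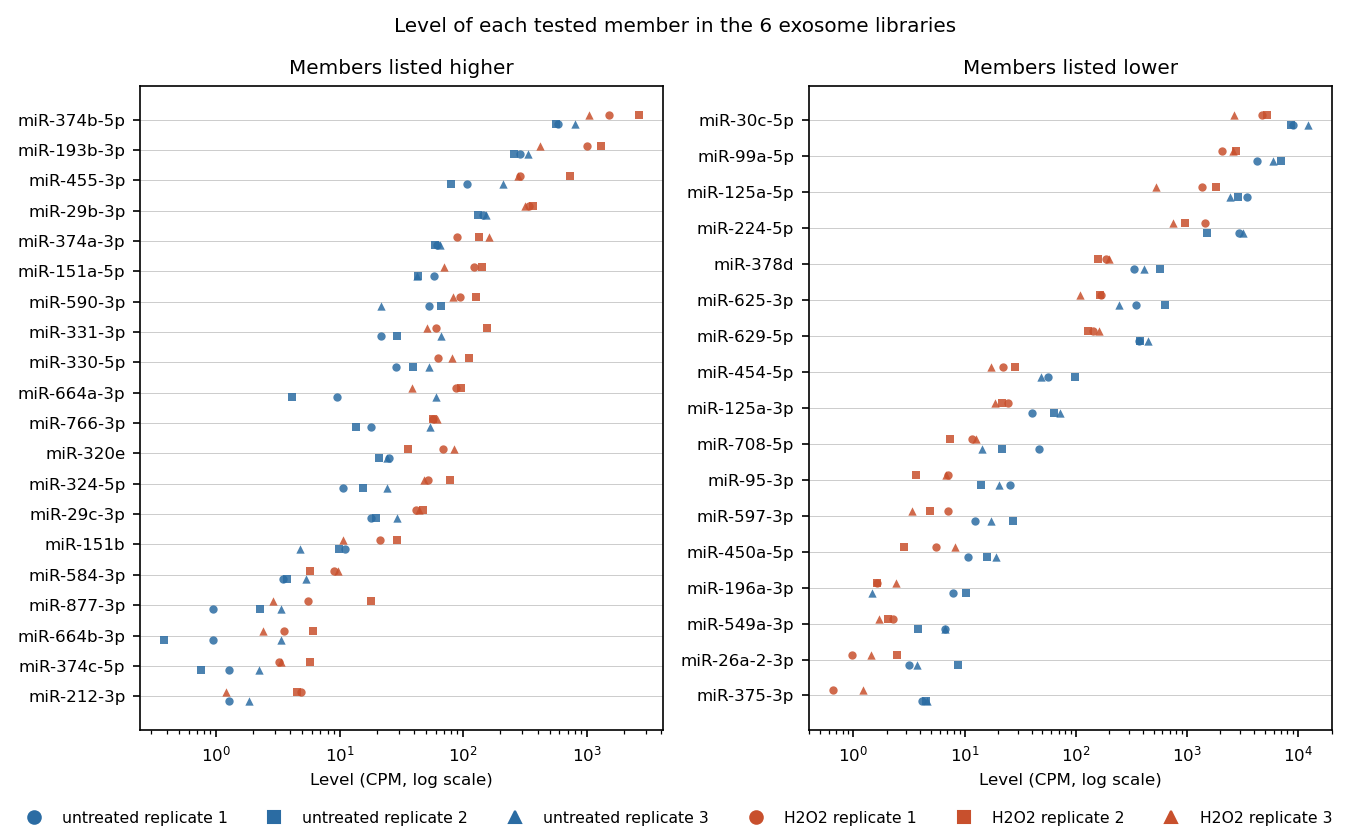
Level of each of the 37 tested members in every library, in CPM on a log axis, with members listed as higher on the left and as lower on the right; blue marks are untreated and orange marks H2O2 libraries, with 1 marker shape per replicate number. The counts of 0 for miR-375-3p in H2O2 replicate 2 and for miR-212-3p in untreated replicate 2 are not drawn. Among rising members the orange and blue marks often lie within 1.5 times of each other.

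The members that were listed as higher were mostly scarce, and those listed as lower included abundant miRNAs. Summed over the 24 listed as higher, the level was 1452.5, 1369 and 1959.7 CPM in untreated replicates 1 to 3 and 3941, 6133 and 2812 CPM in H2O2 replicates 1 to 3. Summed over the 19 listed as lower, it was 20904, 21865 and 25237 CPM in untreated and 10136, 11297 and 7015 CPM in H2O2 replicates. The single miRNA miR-30c-5p made up 37.3% to 48.8% of the second sum, and miR-374b-5p made up 37.1% to 43.5% of the first. CPM is a share of a library's reads, so a lower value need not mean fewer copies of a miRNA. In bulk exosome RNA, fewer vesicles with a given miRNA and fewer copies in each vesicle cannot be told apart either.

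Library totals recovered from the tables were 2449856 to 5405525 reads. Replicate 3 of the H2O2 group stood apart, since 27.4% of its total was miR-1246, which is no member, against 0.1295% to 3.324% in the other 5 libraries. Among the 20 tested members listed as higher, H2O2 replicate 3 was the lowest H2O2 library for 13, and untreated replicate 3 was the highest untreated library for 16. Over all 61 tested known rows listed as higher, the same held for 32 and 36. The nearest libraries of the 2 groups were within 1.5 times of each other, or overlapped, for 18 of these 20 members and for 7 of the 17 listed as lower. Over all tested known rows the shares were 72.1% and 42.4%. With library totals counted without miR-1246, 14 members rose and 12 fell, and of the known rows tested 35.4% rose and 33.1% fell. Scaling by median of ratios, which moved the median of all tested rows by -0.28 on the log2 scale, left 5 that rose (miR-29b-3p, miR-193b-3p, miR-324-5p, miR-374b-5p and miR-455-3p) and 17 that fell. Of the known rows tested, 18.9% then rose and 52.0% fell. Its factors, like those of TMM scaling, came only from rows selected for a difference, which cannot give a sound factor. A call kept or lost under either scaling thus does not decide whether that member changed. Both counts depended on single libraries, as did those of all known rows. With untreated replicate 1, 2 or 3 left out, 2, 2 and 14 members rose and 8, 6 and 12 fell. Of the known rows tested, 12.6%, 14.2% and 30.7% rose and 23.6%, 19.7% and 34.6% fell in these runs. With H2O2 replicate 1, 2 or 3 left out, 3, 4 and 8 members rose and 2, 12 and 9 fell. Of the known rows tested, 11.8%, 15.7% and 25.2% then rose and 7.09%, 34.6% and 22.8% fell.

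**Figure D2:**
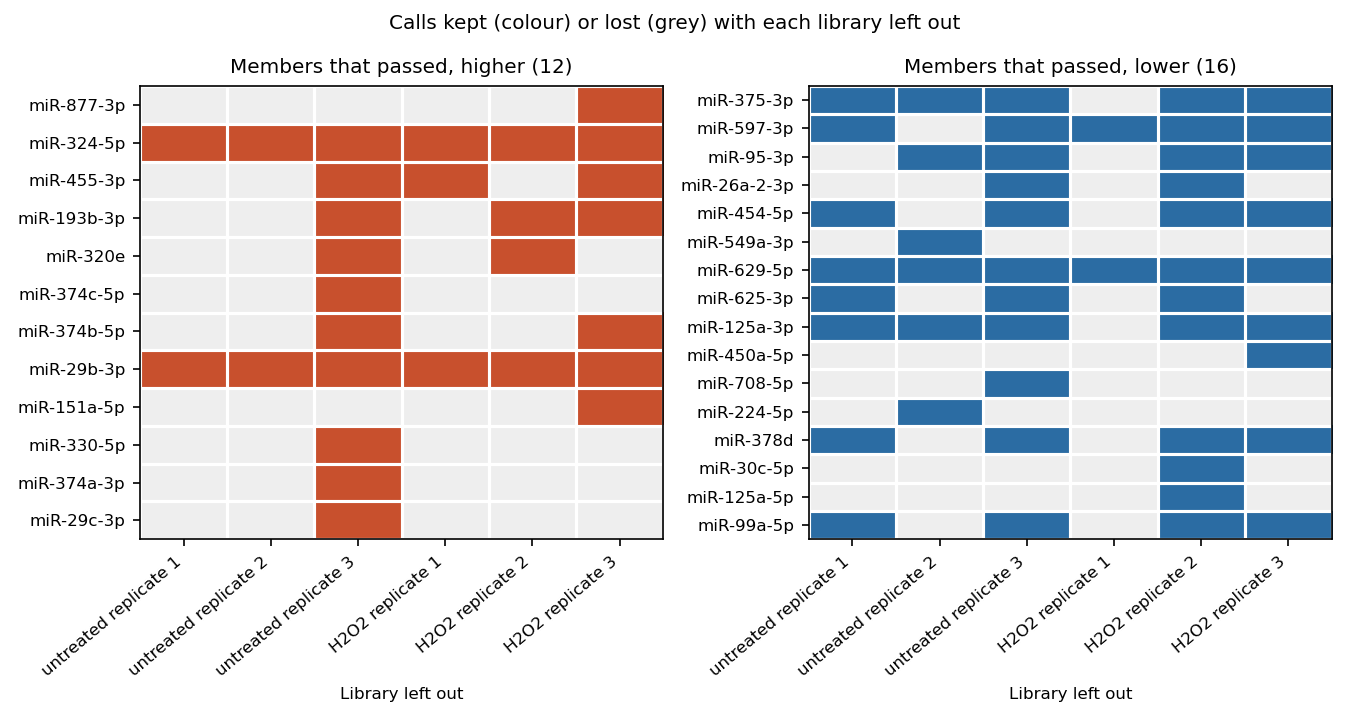
For each of the 12 members that rose (left) and the 16 that fell (right), coloured cells mark the runs in which the member still passed with the library named on the x axis left out, and grey cells those in which it did not. Only miR-29b-3p, miR-324-5p and miR-629-5p are coloured in all 6 columns.

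Of the pairs with a shared seed, the miR-29 family, known for repressing collagens and other matrix genes, rose in both listed members. miR-29b-3p was at 144, 132.7 and 152 CPM in untreated replicates 1 to 3 and at 343, 369.8 and 315 CPM in H2O2 replicates 1 to 3. The H2O2 libraries all lay well above the untreated ones, the nearest at 2.07 times the highest of them. On the log2 scale the change was 1.26 ± 0.33 (SE; edgeR adjusted p = 0.0143), and it ran from 1.2 to 1.32 and still passed whichever library was left out. The less abundant miR-29c-3p was at 18.0, 19.7 and 29.2 CPM in untreated and 41.9, 47.3 and 44.1 CPM in H2O2 libraries. Its groups did not overlap either, and its log2 fold change was 0.99 ± 0.41 (edgeR adjusted p = 0.0483). Of the 6 runs with a library left out, miR-29c-3p passed only in that without untreated replicate 3, with log2 fold changes of 0.86 to 1.24, and median-of-ratios scaling, TMM scaling and no filter on low counts each ended the call.

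The 2 mature miR-29 sequences share a run of 17 bases and match at 19 of the first 22 positions. The hairpins MIR29B2 and MIR29C have starting coordinates 591 bases apart on the minus strand of chromosome 1, at 207802443 to 207802523 and 207801852 to 207801939 (GRCh38), in exons of the long non-coding RNA gene MIR29B2CHG. A second hairpin of miR-29b-3p, MIR29B1, lies on chromosome 7, so a miR-29b-3p read does not show which hairpin it came from. Within a library, miR-29b-3p had 5.20 to 7.98 reads for each miR-29c-3p read in untreated and 7.15 to 8.19 in H2O2 libraries, a ratio that does not depend on the library total. That difference, 0.24 on the log2 scale, gave a two-sided exact permutation p of 0.3, where 3 libraries against 3 cannot give less than 0.1. It is 1 of 6 such ratios compared between members, and over the 6 the Benjamini-Hochberg adjusted p was 0.9 or 1.

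Both listed members of the miR-193 family, studied as a restraint on cell growth through messages such as cyclin D1, were higher with H2O2, but only one was abundant enough to test. miR-193b-3p was at 290.2, 259 and 334 CPM in untreated and 1001, 1297 and 419 CPM in H2O2 libraries. H2O2 replicate 3 lay well below the other 2 H2O2 libraries and at 1.26 times the highest untreated one. Fitted on the log2 scale, it changed by 1.62 ± 0.46 (edgeR adjusted p = 0.0202), ran from 1.27 to 1.97 with a library left out, and no longer passed without untreated replicate 1, untreated replicate 2 or H2O2 replicate 1. Its hairpin lies at 14303967 to 14304049 on the plus strand of chromosome 16, in an intron of the non-coding host gene MIR193BHG. miR-193a-3p, with the same seed and the same base at 18 of 22 positions, had 0 reads in all 3 untreated libraries and 4, 1 and 4 reads in H2O2 replicates 1 to 3. Taken as exact and set against a floor of 3 reads over the untreated group, the H2O2 reads gave a ratio of 3.48. Counting error of the H2O2 reads was left out, so this ratio is not a lower bound.

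All 3 listed entries of the miR-374 group, from the FTX region of chromosome X, rose. FTX is a long non-coding RNA gene near the X-inactivation centre. miR-374b-5p, the most abundant member that rose, was at 588, 569.5 and 800.3 CPM in untreated and 1523.5, 2669.5 and 1043 CPM in H2O2 libraries. Every H2O2 library was above every untreated one, with H2O2 replicate 3 closest, at 1.30 times untreated replicate 3. In edgeR the log2 fold change was 1.42 ± 0.44 (edgeR adjusted p = 0.0253), between 0.98 and 1.68 with a library left out, and it passed only in the runs without untreated replicate 3 and without H2O2 replicate 3.

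miR-374c-5p had 4, 2 and 12 reads in untreated and 10, 14 and 14 reads in H2O2 libraries, without overlap in CPM (1.42 ± 0.59 on the log2 scale, edgeR adjusted p = 0.0480). The MIR374C hairpin, at 74218549 to 74218618 on the plus strand, lies opposite that of miR-374b-5p, at 74218547 to 74218618 on the minus strand. The mature sequences share a run of 20 of their 22 bases, so that reads of this run cannot be assigned to one of them by sequence. For each miR-374c-5p read there were 360 to 753 miR-374b-5p reads in untreated and 308 to 469 in H2O2 libraries (exact permutation p = 0.6, two-sided). Its call was lost without any one library but untreated replicate 3, with log2 fold changes of 1.13 to 1.95, and with median-of-ratios scaling, TMM scaling, no filter and DESeq2, and a filter of 20 counts left it untested.

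miR-374a-3p, the 3p arm of another FTX hairpin, was at 61.0, 59.7 and 65.3 CPM in untreated and 88.7, 135 and 162 CPM in H2O2 libraries. The untreated libraries lay close together and the H2O2 libraries spread over a wider range, with H2O2 replicate 3 the highest and not the lowest. H2O2 against untreated, on the log2 scale, gave 1.05 ± 0.38 (edgeR adjusted p = 0.0328), from 0.85 to 1.26 with a library left out, and of these runs only that without untreated replicate 3 passed. It did not pass with median-of-ratios scaling. For each miR-374a-3p read, miR-374b-5p had 9.53 to 12.3 reads in untreated libraries, 17.2 and 19.8 in H2O2 replicates 1 and 2, and 6.43 in H2O2 replicate 3 (two-sided exact permutation p = 0.6).

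**Figure D3:**
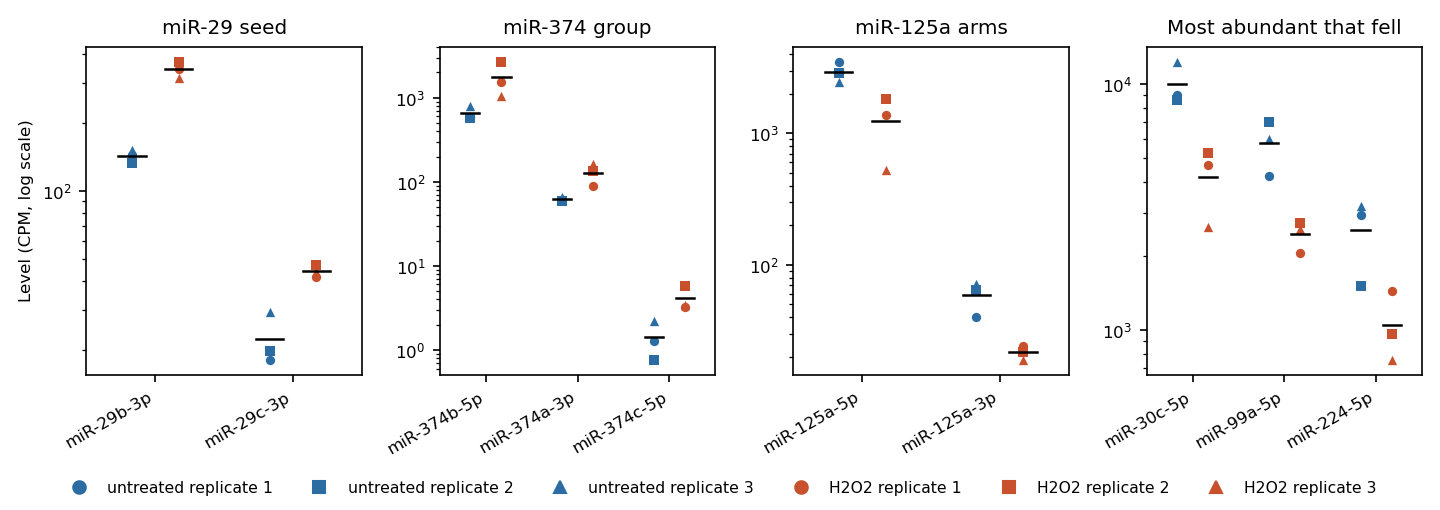
Level in CPM on a log axis of the miR-29 pair, the miR-374 group, both arms of miR-125a and the other most abundant members that fell, with 1 mark per library, blue for untreated and orange for H2O2, and a black line at each group mean. The miR-29b-3p libraries of each group lie close together, at 132.7 to 152 and 315 to 369.8 CPM, and H2O2 replicate 3 is the lowest mark for miR-125a-5p, at 527 CPM.

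Beyond these groups, miR-324-5p, known for repressing Hedgehog signalling genes in medulloblastoma cells, was at 10.7, 15.5 and 24.4 CPM in untreated and 52.3, 78.8 and 48.7 CPM in H2O2 libraries. The lowest H2O2 library was 1.99 times the highest untreated one. The log2 fold change was 1.82 ± 0.47 (edgeR adjusted p = 0.0143), from 1.57 to 2.19 with a library left out, and it passed in all 6 of these runs. Its hairpin lies at 7223297 to 7223379 on the minus strand of chromosome 17, opposite an intron of ACADVL.

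miR-455-3p, an miRNA best known from cartilage, comes from an intron of the collagen gene COL27A1 on chromosome 9. It was at 107, 79.0 and 211 CPM in untreated and 287, 734 and 276 CPM in H2O2 libraries. H2O2 replicate 2 was high, and untreated replicate 3 came within 1.30 times of the lowest H2O2 library. Fitted on the log2 scale, it changed by 1.70 ± 0.54 (edgeR adjusted p = 0.0257), 1.09 to 2.22 with a library left out, and it was not called without untreated replicate 1, untreated replicate 2 or H2O2 replicate 2.

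miR-320e, a short member of the miR-320 family, had 25.0, 20.8 and 24.0 CPM in untreated and 68.5, 35.9 and 84.5 CPM in H2O2 libraries, with H2O2 replicate 2 nearest to the untreated ones. In edgeR the log2 fold change was 1.44 ± 0.45 (edgeR adjusted p = 0.0253), 1.17 to 1.71 with a library left out, and only the runs without untreated replicate 3 and without H2O2 replicate 2 passed. The call was also lost with median-of-ratios scaling.

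miR-151a-5p, studied for its part in liver cancer cell migration, had 58.5, 43.1 and 42.4 CPM in untreated and 121, 143 and 69.7 CPM in H2O2 libraries. H2O2 against untreated, on the log2 scale, gave 1.21 ± 0.42 (edgeR adjusted p = 0.0285), 0.99 to 1.46 with a library left out, and it passed only without H2O2 replicate 3. Median-of-ratios scaling ended its call. The related entry miR-151b, which may share reads with it, had 11.1, 9.83 and 4.81 CPM in untreated and 21.4, 29 and 10.6 CPM in H2O2 libraries. Its groups overlapped through H2O2 replicate 3, and it did not pass (1.25 ± 0.56, edgeR adjusted p = 0.0588). It passed without H2O2 replicate 3, with totals counted without miR-1246 and with DESeq2, at 1.56, 1.36 and 1.26. For each miR-151b read there were 4.38 to 8.81 miR-151a-5p reads in untreated and 4.93 to 6.55 in H2O2 libraries (two-sided exact permutation p = 0.9).

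miR-330-5p, whose hairpin lies in an exon of EML2 on chromosome 19, had 28.8, 39.3 and 52.9 CPM in untreated and 62.0, 111 and 81.1 CPM in H2O2 libraries. The groups did not overlap, and the change on the log2 scale was 1.07 ± 0.43 (edgeR adjusted p = 0.0437), 0.82 to 1.32 with a library left out. It passed in just 1 of those runs, that without untreated replicate 3, and with neither median-of-ratios nor TMM scaling.

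The largest fitted rise, that of miR-877-3p, rested on few reads. This miRNA is a mirtron product, cut from a short ABCF1 intron that splicing releases. It had 3, 6 and 18 reads in untreated and 17, 44 and 12 reads in H2O2 libraries. The groups overlapped, since H2O2 replicate 3, at 2.90 CPM, lay below untreated replicate 3, at 3.33 CPM. On the log2 scale the change was 1.92 ± 0.78 (edgeR adjusted p = 0.0458), but 0.87 to 2.42 with a library left out. Of those runs only that without H2O2 replicate 3 passed, and the call was lost with median-of-ratios scaling and limma at either pseudocount. A filter of 20 counts left it untested.

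The other 8 tested members listed as higher did not pass, among them miR-151b. In 5 of these the groups overlapped (miR-151b, miR-212-3p, miR-331-3p, miR-664a-3p and miR-664b-3p). miR-664a-3p had 9.48 and 4.16 CPM in untreated replicates 1 and 2 but 59.9 CPM in untreated replicate 3, against 88.3, 96.7 and 38.7 CPM in H2O2 libraries. Untreated replicate 3 thus lay above H2O2 replicate 3, and the log2 fold change of 1.59 ± 0.86 (edgeR adjusted p = 0.102) was 3.43 without untreated replicate 3, the only run with a library left out in which it passed. It also passed with limma, at 2.24 with a pseudocount of 1 and 1.86 with a pseudocount of 5. miR-664b-3p had 3, 1 and 18 reads in untreated and 11, 15 and 10 reads in H2O2 libraries, with untreated replicate 3 again the high one, and a value of 1.19 ± 0.74 on the log2 scale (edgeR adjusted p = 0.141) that was 2.47 without that library, where it passed. The hairpins of miR-664a-3p and miR-664b-3p overlap the small nucleolar RNA genes SNORA36B and SNORA36A. Fragments of those RNAs and the miRNAs cannot be told apart here. For each miR-664b-3p read there were 10, 11 and 18 miR-664a-3p reads in untreated and 24.7, 15.8 and 16 in H2O2 libraries (two-sided exact permutation p = 0.3).

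miR-331-3p, known for repressing ERBB2 in prostate cancer cells, had 21.8, 29.1 and 66.6 CPM in untreated and 59.8, 156 and 50.6 CPM in H2O2 libraries. Here too untreated replicate 3 lay above H2O2 replicates 1 and 3, and the log2 fold change of 1.17 ± 0.60 (edgeR adjusted p = 0.0851) was 1.80 without untreated replicate 3, where it passed. miR-766-3p had 18.0, 13.6 and 53.5 CPM in untreated and 57.5, 57.1 and 61.0 CPM in H2O2 libraries. The H2O2 libraries were close together, and untreated replicate 3 came within 1.07 times of them. Its log2 fold change was 1.04 ± 0.55 (edgeR adjusted p = 0.0953), and 1.88 without untreated replicate 3, where it passed, as it did with limma at a pseudocount of 1 (1.27).

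miR-590-3p, known in rodent heart muscle cells for promoting division, was at 53.4, 65.8 and 21.5 CPM in untreated and 93.9, 127 and 82.1 CPM in H2O2 libraries. The groups did not overlap, with untreated replicate 3 the low one, and the log2 fold change was 1.11 ± 0.49 (edgeR adjusted p = 0.0549). It passed with limma at either pseudocount (1.21 and 1.13) and with totals counted without miR-1246 (1.26). miR-212-3p, a CREB-responsive miRNA of neurons, had 4, 0 and 10 reads in untreated and 15, 11 and 5 reads in H2O2 libraries. Its value was 1.56 ± 0.85 on the log2 scale (edgeR adjusted p = 0.103) and passed in none of the 17 alternative settings. miR-584-3p had 11, 10 and 29 reads in untreated and 28, 14 and 40 reads in H2O2 libraries, a value of 0.94 ± 0.49 on the log2 scale (edgeR adjusted p = 0.0904), and passed only with a filter of 20 counts.

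**Figure D4:**
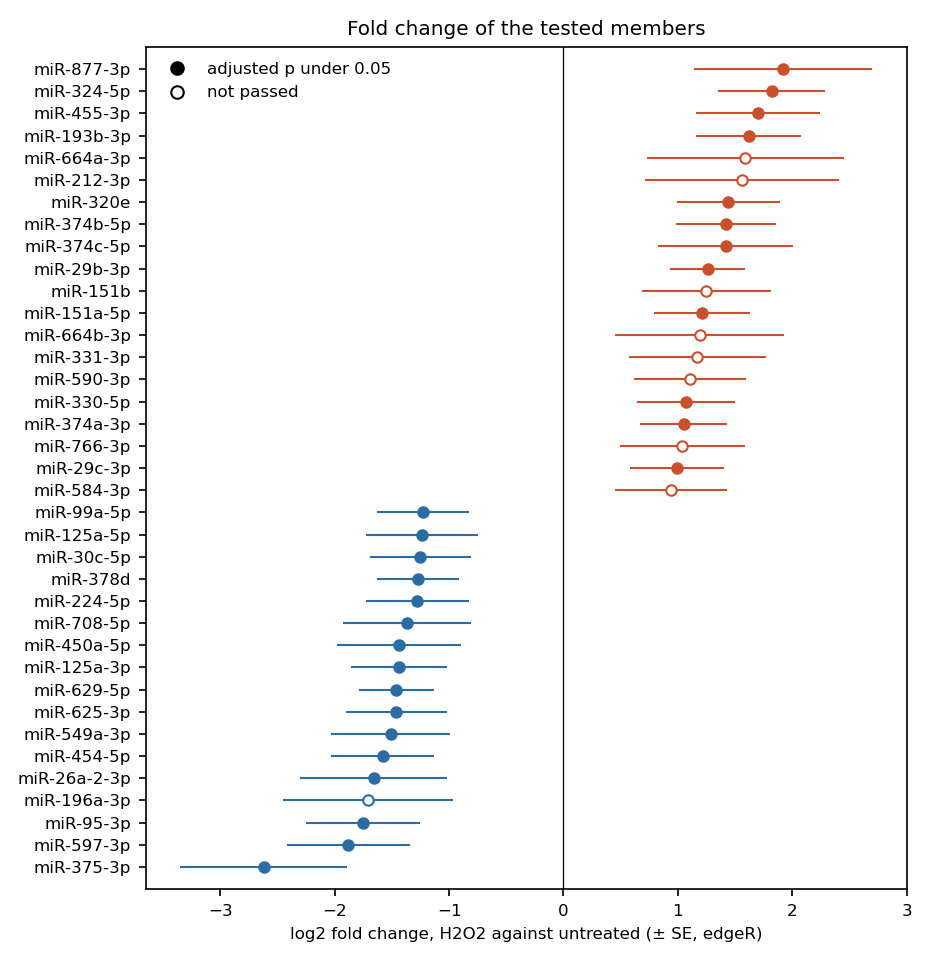
Log2 fold change of H2O2 against untreated exosomes for the 37 tested members, with the edgeR standard error as bars; filled marks passed at an adjusted p below 0.05 and open marks did not. The values run from -2.62 for miR-375-3p to 1.92 for miR-877-3p, with none between -1.23 and 0.94.

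The most abundant member, miR-30c-5p, fell. It belongs to the miR-30 family, which is widely expressed in epithelia and studied in the transition of epithelial to mesenchymal cells. It was at 8989, 8627 and 12305 CPM in untreated and 4691, 5257 and 2619 CPM in H2O2 libraries. The groups did not overlap, and the lowest untreated library was 1.64 times the highest H2O2 one. The log2 fold change was -1.25 ± 0.44 (edgeR adjusted p = 0.0306), from -1.45 to -1.0 with a library left out, and of these runs only that without H2O2 replicate 2 passed. Hairpins of miR-30c-5p lie in an intron of NFYC on chromosome 1 and in LINC00472 on chromosome 6, so the source of a read is not known.

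miR-99a-5p, known for repressing MTOR, was at 4230.1, 7016 and 5976 CPM in untreated and 2056, 2731 and 2571 CPM in H2O2 libraries. The H2O2 libraries lay close together, all below every untreated one. In edgeR the log2 fold change was -1.23 ± 0.40 (edgeR adjusted p = 0.0262), from -1.41 to -1.06 with a library left out. It no longer passed without untreated replicate 2, without H2O2 replicate 1 or with totals counted without miR-1246. Its hairpin, at 16539089 to 16539169 on chromosome 21 in an intron of MIR99AHG, starts 739 bases before that of let-7c-3p, which also fell (-1.89 ± 0.63 on the log2 scale, edgeR adjusted p = 0.0266). The mean level of let-7c-3p was 3.99 ± 2.18 CPM in untreated and 1.03 ± 0.247 CPM in H2O2 libraries (SD over 3 libraries).

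Both arms of miR-125a, a relative of the developmental miRNA lin-4, fell. The hairpin lies on the plus strand of chromosome 19, at 51693254 to 51693339, in an intron of SPACA6 and opposite an exon of SPACA6P-AS. It is shown whole because both of its arms, in capitals, were listed.
MIR125A hairpin: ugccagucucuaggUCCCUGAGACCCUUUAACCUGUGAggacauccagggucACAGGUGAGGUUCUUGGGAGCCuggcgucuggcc
The major arm, miR-125a-5p, was at 3490.1, 2871 and 2452 CPM in untreated and 1368, 1824 and 527 CPM in H2O2 libraries. H2O2 replicate 3 was far below the other 2 H2O2 libraries, and all 3 lay below every untreated library. H2O2 against untreated, on the log2 scale, gave -1.24 ± 0.49 (edgeR adjusted p = 0.0429), from -1.63 to -0.88 with a library left out, and it passed only without H2O2 replicate 2.

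The minor arm, miR-125a-3p, was at 40.5, 63.9 and 72.1 CPM in untreated and 24.4, 21.6 and 18.9 CPM in H2O2 libraries, again without overlap. Its log2 fold change was -1.44 ± 0.42 (edgeR adjusted p = 0.0208), from -1.65 to -1.27 with a library left out, and it passed in all of these runs but that without H2O2 replicate 1. The number of 5p reads per 3p read was 86.3, 44.9 and 34 in untreated and 56.1, 84.3 and 27.9 in H2O2 libraries. This ratio varied widely within each group, and its group means differed by 0.00 on the log2 scale (two-sided exact permutation p = 1).

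miR-224-5p, raised in liver cancer and embedded in an exon of GABRE on chromosome X, was at 2929, 1506 and 3193 CPM in untreated and 1437, 959 and 754 CPM in H2O2 libraries. Untreated replicate 2 was the low one, at only 1.05 times H2O2 replicate 1. On the log2 scale the change was -1.28 ± 0.45 (edgeR adjusted p = 0.0293), from -1.57 to -1.08 with a library left out, and only the run without untreated replicate 2 passed.

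Some miRNAs of middling abundance fell as well. miR-629-5p, from an intron of TLE3 on chromosome 15, was at 368, 377 and 445 CPM in untreated and 143, 128 and 161 CPM in H2O2 libraries. Both groups were tight and lay 2.29 times apart at their nearest libraries. Fitted on the log2 scale, it changed by -1.46 ± 0.33 (edgeR adjusted p = 0.0117), from -1.55 to -1.37 with a library left out, and it passed in all 6 of those runs.

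miR-378d, of a family known for its role in energy metabolism, was at 333, 566 and 412 CPM in untreated and 188, 159 and 199 CPM in H2O2 libraries (log2 fold change -1.27 ± 0.36, edgeR adjusted p = 0.0202). miR-625-3p, studied in colorectal cancer and drawn from an intron of FUT8, was at 345, 634 and 243 CPM in untreated and 169.9, 164 and 109 CPM in H2O2 libraries (-1.46 ± 0.44, edgeR adjusted p = 0.0250). miR-454-5p, from an intron of SKA2, was at 56.6, 97.6 and 48.3 CPM in untreated and 22.1, 28.6 and 17.2 CPM in H2O2 libraries (-1.58 ± 0.45, edgeR adjusted p = 0.0204). In none of these 3 did the groups overlap, and in each untreated replicate 2 was the highest library. None of the 3 passed without untreated replicate 2 or without H2O2 replicate 1, and miR-625-3p also not without H2O2 replicate 3. With a library left out their log2 fold changes ran from -1.43 to -1.04, from -1.73 to -0.99 and from -1.78 to -1.21.

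Among scarcer members, miR-95-3p was at 25.6, 14.0 and 20.2 CPM in untreated and 7.14, 3.67 and 6.78 CPM in H2O2 libraries, without overlap. The log2 fold change was -1.75 ± 0.50 (edgeR adjusted p = 0.0204), -1.94 to -1.52 with a library left out, and not called without untreated replicate 1 or H2O2 replicate 1. miR-597-3p was at 12.3, 27.2 and 17.4 CPM in untreated and 7.14, 4.90 and 3.39 CPM in H2O2 libraries, and its groups did not overlap. The change was -1.88 ± 0.54 on the log2 scale (edgeR adjusted p = 0.0202). With a library left out its value ran from -2.20 to -1.54, and it passed in every such run but that without untreated replicate 2 (-1.54).

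miR-708-5p, induced by endoplasmic reticulum stress in mouse cells, was at 46.8, 21.6 and 14.2 CPM in untreated and 11.7, 7.35 and 12.6 CPM in H2O2 libraries. Untreated replicate 1 was high, and untreated replicate 3 was at only 1.13 times the highest H2O2 library. H2O2 against untreated, on the log2 scale, gave -1.37 ± 0.56 (edgeR adjusted p = 0.0465) but -0.75 without untreated replicate 1, and of the runs with a library left out only that without untreated replicate 3 passed. It passed neither with limma at either pseudocount nor with totals counted without miR-1246.

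miR-450a-5p was at 10.7, 15.9 and 19.1 CPM in untreated and 5.52, 2.86 and 8.23 CPM in H2O2 libraries, without overlap (log2 fold change -1.44 ± 0.54, edgeR adjusted p = 0.0361). With a library left out its value was -1.84 to -1.14, and it passed only without H2O2 replicate 3. Counting totals without miR-1246 also ended this call. One of its hairpins, MIR450A1, lies on chromosome X, with a starting coordinate 6273 bases below that of miR-424-3p, which also fell (-1.6 ± 0.47 on the log2 scale, edgeR adjusted p = 0.0225). Untreated libraries averaged 12.2 ± 1.76 CPM of miR-424-3p and H2O2 libraries 4.06 ± 0.768 CPM (SD over 3 libraries).

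miR-375-3p, an miRNA of pancreatic islets that in mouse limits insulin release, had the lowest fitted value of all members, on few reads. It had 13, 12 and 25 reads in untreated and 2, 0 and 5 reads in H2O2 libraries, without overlap. On the log2 scale the change was -2.62 ± 0.73 (edgeR adjusted p = 0.0196), -3.51 to -2.18 with a library left out, and it was lost without H2O2 replicate 1. miR-549a-3p had 21, 10 and 36 reads in untreated and 7, 5 and 7 in H2O2 libraries (-1.51 ± 0.52, edgeR adjusted p = 0.0284), and passed only in the run without untreated replicate 2 when a library was left out (range -1.72 to -1.38) and not with no filter. miR-26a-2-3p, the minor arm of a growth-restraining miR-26 hairpin in CTDSP2, had 10, 23 and 20 reads in untreated and 3, 6 and 6 in H2O2 libraries (-1.66 ± 0.64, edgeR adjusted p = 0.0397), and passed only without untreated replicate 3 or H2O2 replicate 2 (range -2.01 to -1.1). Its call also ended with totals counted without miR-1246 and with no filter. At a filter of 20 counts, miR-375-3p, miR-549a-3p and miR-26a-2-3p were not tested.

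The minor arm miR-196a-3p, from a hairpin within the HOXC gene cluster, was the 1 tested member listed as lower that did not pass. It had 25, 27 and 8 reads in untreated and 5, 4 and 10 reads in H2O2 libraries. Untreated replicate 3, at 1.48 CPM, lay below all 3 H2O2 libraries, and the log2 fold change of -1.71 ± 0.74 (edgeR adjusted p = 0.0528) was -2.21 in the run without that library, where it passed. It also passed with median-of-ratios scaling, TMM scaling and DESeq2, at -1.99 to -1.74.

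The 6 members below the filter had between 0 and 17 reads in any library. miR-570-5p had 0, 1 and 2 reads in untreated and 3, 1 and 16 in H2O2 libraries, so that 64.5% of its summed CPM came from H2O2 replicate 3. miR-129-1-3p had 0, 1 and 2 reads in untreated and 4, 3 and 3 in H2O2 libraries. miR-329-3p had 0, 1 and 5 reads in untreated and 4, 10 and 2 in H2O2 libraries, and its groups overlapped. On the other side, miR-135a-3p had 1, 5 and 12 reads in untreated and 0, 0 and 2 in H2O2 libraries, with overlap in CPM, and miR-508-3p had 17, 2 and 8 reads in untreated and 2, 0 and 2 in H2O2 libraries. The sixth, miR-193a-3p, is given above with its family. With no filter all 43 members were fitted, and the 11 that rose in that run included a member from these 6. At these depths no size of change is given for the 6, and the ratio given for miR-193a-3p is no bound.

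Set against lists of miRNAs by family and known role, the members were spread thinly. In the list of miR-29, miR-30 and miR-26 families, the 4 members tested divided evenly, miR-29b-3p and miR-29c-3p rising and miR-30c-5p and miR-26a-2-3p falling, with a median log2 fold change of -0.13. As background, 30.7% of the known miRNAs tested rose and 48.0% fell, and 92.4% of those listed as lower passed. In the list of miR-10, miR-99 and miR-100 families with miR-125a, all 3 members tested fell, with a median of -1.24, namely miR-99a-5p and both arms of the miR-125a hairpin, as most rows listed as lower did. In the inflammation and NF-kB list, 2 of 11 hairpins had a member, of which miR-193b-3p rose and miR-212-3p did not pass. The redox and hypoxia list had 1 of 16, miR-212-3p, which did not pass. The neural list had 3 of 12, of which miR-330-5p rose, miR-212-3p did not pass and miR-129-1-3p was not tested. The epidermis and epithelium list had 1 of 16, miR-224-5p, which fell, and miR-203a, miR-21 and the miR-200 family were not listed in the known tables. Arms of miR-31 and miR-205, looked up as a check of the keratinocyte label, were listed there (miR-31-3p and miR-205-3p). Being listed marks a difference with H2O2 and not a cell type. In the muscle and stroma list 1 of 14 was present, miR-99a-5p, which fell. The DLK1-DIO3 cluster had 1 of 48, miR-329-3p, not tested. The blood cell list, the chromosome 19 cluster and the remaining hairpins of the CLCN5 cluster had 0. Since the tables used here hold rows selected for a difference, a miRNA's absence from them says nothing of its presence in the exosomes. The label could thus not be checked from them.

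As for features that the choice of members did not use, 26 of the 43 were 3p arms, 14 were 5p arms and 3 carried no arm in the name. Among those listed as higher, 16 were 3p and 6 were 5p arms, and among those listed as lower 10 were 3p and 8 were 5p arms. Of the other 118 known rows, 30 carried no arm in the name. Those listed as higher held 19 of 3p and 18 of 5p arms, and those listed as lower 27 and 24. The median GC content of the mature sequence was 50.0% for the 21 members listed as higher with a sequence (19% to 63.6%) and 45.5% for the 17 listed as lower (31.8% to 59.1%). In the other known rows the order was the other way, with 47.8% for 45 listed as higher and 52.2% for 53 listed as lower, and neither difference was tested. Within 10000 bases of a member's hairpin, hairpins of another listed miRNA were those of the pairs miR-29b-3p and miR-29c-3p, miR-374b-5p and miR-374c-5p, miR-450a-5p and miR-424-3p, and miR-99a-5p and let-7c-3p, whose values are given above.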

How the data were processed

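Small RNA of 6 exosome libraries was compared, 3 untreated and 3 H2O2. Per the submitters' processing notes, bcl2fastq, FastQC, cutadapt and Bowtie 1.1.1 were used. The genome build, miRNA catalogue and counting rules were not given in the sources used here. Each row carries a read count and a normalized value per library, per the file headers. The values show that the authors' normalized value is CPM, and count over CPM gave the library totals. The authors also deposited a log2 fold change, its linear fold (ratio) and an unadjusted p-value, at most 0.049, with an absolute log2 fold change of at least 1.03, so rows were selected for a difference.

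Counts of all 276 rows were fitted with edgeR 4.0.16 in R 4.3.3 (estimateDisp, glmQLFit, glmQLFTest, two-sided), with recovered totals, no composition factor, at least 5 counts in at least 3 libraries, and Benjamini-Hochberg adjustment over the 186 rows tested at 0.05. SE is the log2 fold change divided by the root of F. The fit was also run on simulated counts with known changes and no selection of rows. That run therefore does not cover the effect of the authors' selection on the p-values here. Alternatives were other scalings (median-of-ratios, TMM, totals without miR-1246), filters (none, 20 counts), DESeq2 1.42.0, limma 3.58.1 on log2(CPM + 1) and log2(CPM + 5), a replicate block, 1 row per set of identical counts, adjustment to 2000 miRNAs, and each library left out. The median-of-ratios and TMM factors came from the selected rows alone. Members and lists were chosen with earlier results of these data known. Members were named where they passed without overlap and averaged 10 CPM or more in their higher group (up to 10 per direction, by size), were among the 5 most abundant, shared a seed or hairpin, belonged to a list, had overlapping groups or had the largest share in 1 library. All members below the filter were also named, among them miR-508-3p, which met none of these terms. miR-374c-5p, miR-375-3p, miR-549a-3p, miR-584-3p, miR-590-3p and miR-766-3p fall outside these rules. These were added after their values were seen, so that every member is accounted for. Lists were matched by hairpin name. P-values set the difference between groups against the spread between these libraries. The floor of 3 reads used for miR-193a-3p covers counting error of the untreated count only. Hairpin positions come from RefSeq GRCh38.p14 and overlapping genes from GENCODE 29 (GRCh38).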

Additional observations from a re-analysis of the deposited data

How the results depend on the processing

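The fitted direction of the 37 tested members changed in 0 of the 17 alternative settings, but the authors' choice of rows had set most directions. The number that rose (12) was 5 with median-of-ratios scaling, where 18.9% of known rows tested rose, against 30.7% in the main fit. Both counts were 0 with adjustment to 2000 miRNAs, where 2 of 127 known rows rose and 0 fell. With a library left out, the number that rose was between 2 and 14 and the number that fell (16) between 2 and 12. The shares of known rows moved too, between 11.8% and 30.7% that rose and between 7.09% and 34.6% that fell. The cause was not tested. In the other 9 settings both stayed within 1.5 times, among them TMM scaling (9 and 17), no filter (11 and 14) and DESeq2 (12 and 17). The run with no filter fitted all 43 members, and its 11 included a member from below the filter. Of the known rows, 27.6% rose and 52.0% fell with TMM scaling, 28.0% and 34.8% with no filter, and 31.7% and 51.6% with DESeq2. Of the 28 calls, 3 were kept in all 6 runs with a library left out and 25 were lost in at least 1. Of the 9 members that did not pass, 8 passed in some setting.

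With a replicate block 13 rose and 16 fell, and of the known rows tested 31.5% rose and 47.2% fell. The block ended the calls of miR-29c-3p, miR-374a-3p and miR-374c-5p (1.02, 1.01 and 1.43) and brought calls for miR-151b, miR-590-3p, miR-664a-3p and miR-766-3p (1.21, 1.23, 2.45 and 1.3). Same-numbered libraries deviated together only in part (r = 0.197, 0.0775 and 0.227 for replicates 1, 2 and 3 over 186 rows). Each untreated replicate correlated most with the H2O2 library of its own number, and libraries of unlike number gave -0.252 to 0.122. H2O2 replicate 2, however, correlated more with untreated replicate 1 (0.122) than with its own number. Whether the numbers mark pairs was not settled by these values, and the main fit left the libraries unpaired. Depth limits most the 15 members with a mean below 10 CPM.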
